A study of Mus musculus with 6 samples.

Results

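A set of 10 imprinted genes was followed in the transcripts of haematopoietic stem cells (HSCs) of old and young mice. They were Dlk1, Impact, Zrsr1, Ndn, Mest, Peg3 and Plagl1, which are known as paternally expressed in the mouse, and Grb10, Igf2r and Gnas, which are known as maternally expressed in many or in some tissues. The genes were chosen by name as imprinted genes tied mostly to growth, with earlier results of these data known. All 10 were found by Ensembl identifier among the 16312 genes of the count table.

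The HSCs came from bone marrow of male C57BL/6N mice, were purified with a flow sorter, and had their RNA sequenced. The old group held 3 biological replicates from mice aged 22 months, and the young group held 3 from mice aged 8 to 12 weeks. The labels do not say whether a replicate is a single animal or a pool. Both groups are labelled as B6 controls and belong to work on parabiosis, in which animals are joined by surgery. Each library counted as 1 replicate, and the sources used here do not give the surface markers of the sort. The old libraries held between 12494557 and 23583985 counts in all, and the young libraries between 21386745 and 30931680. The old libraries carried the numbers 28, 29 and 30 in their labels and the young ones 1, 5 and 24, so age and any step that followed those numbers cannot be told apart. The title and the description of young replicate 2 name different library numbers, and results that turn on this library are given with and without it.

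An imprinted gene is transcribed mainly from the copy inherited from a single parent, which is set by DNA methylation laid down in the egg or the sperm. Many imprinted genes act on growth: as a broad pattern, paternally expressed ones tend to promote it and maternally expressed ones tend to restrain it. Several of them, among them Dlk1, Grb10, Ndn and Gnas, have been studied in blood stem cells, where imprinted genes are discussed as regulators of quiescence and long-term maintenance. The counts do not separate the 2 parental copies, so every value here is the sum over both.

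The comparison asks how these genes differ between HSCs of old and of young mice. Among the 7 paternally expressed genes 3, Dlk1, Impact and Zrsr1, were higher in old mice, and none was lower. None of the 3 maternally expressed genes passed the test in either direction. Over all 10 genes 3 were called, whereas 3.99% of the 14288 genes tested were called in either direction and 2.45% were called as higher in old mice (edgeR quasi-likelihood test, adjusted p under 0.05). The 10 genes were chosen with earlier results of these data known, so these shares do not test for enrichment. The median log2 fold change of old over young was 0.83 over the 7 paternally expressed genes, 0.23 over the 3 maternally expressed ones and −0.02 over all genes tested. These medians are descriptions, and the difference between the classes was not tested. The 3 calls did not all hold when a single library was left out. Calls over all genes fell as well, from 570 to 322, 345 and 245 without old replicates 1, 2 and 3. They were 473, 423 and 463 without young replicates 1, 2 and 3. Without old replicate 3 none of the 10 genes passed, without old replicate 1 only Dlk1 passed, and without old replicate 2 or young replicate 1 Dlk1 and Impact passed. Without young replicate 2 Dlk1, Impact and Ndn passed.

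Levels are given as CPM, counts relative to a TMM-scaled library size, and fold changes as old over young on the log2 scale with the standard error (SE). For 4 of the 10 genes, Dlk1, Impact, Zrsr1 and Grb10, the lowest old library stood above the highest young one. Groups without overlap occurred in 22.4% of all genes tested, and in 11.6% with the old mice higher.

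**Figure D1:**
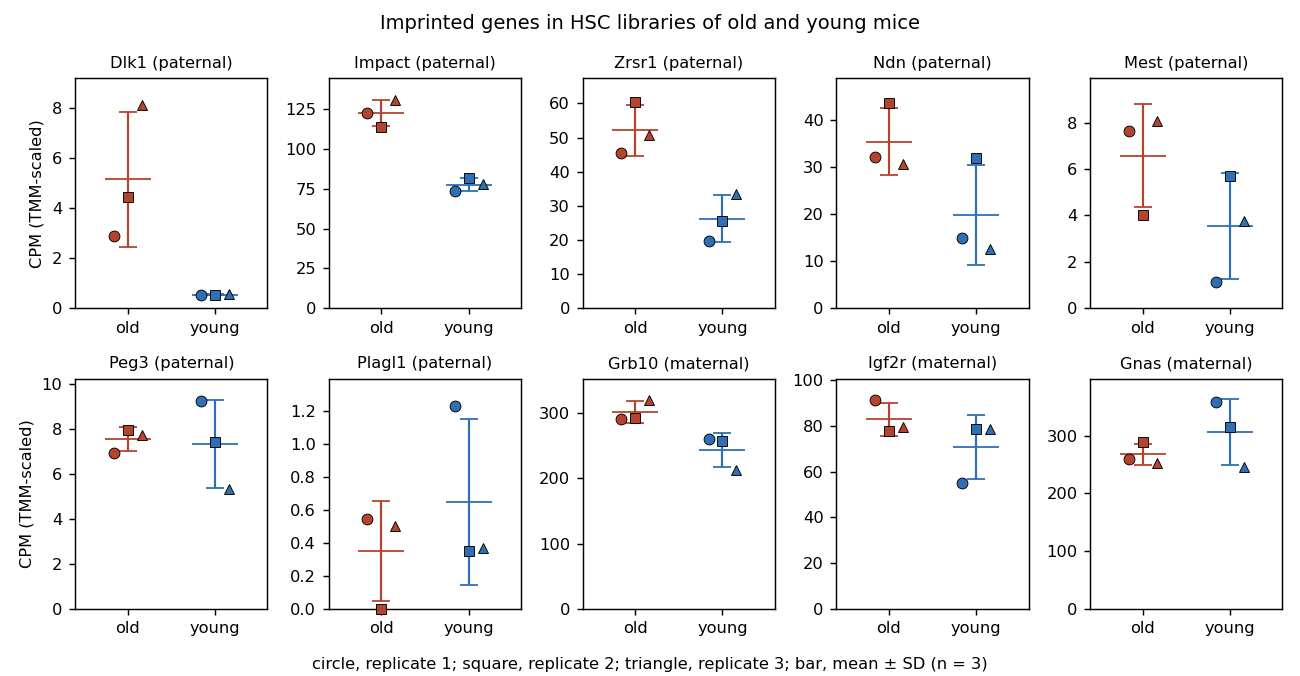
CPM of the 10 imprinted genes in each library, with old mice left of young mice in every panel, each point a library and each bar the mean ± SD (n = 3 per age). The old libraries of Dlk1, Impact, Zrsr1 and Grb10 lie above all young ones, whereas the groups overlap in the other panels.

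Dlk1 encodes a membrane protein related to the Notch ligands, which is also shed as a soluble factor and is best known as an inhibitor of fat cell formation. The gene lies on chromosome 12 from 109452823 to 109463336 (GRCm38, plus strand). It had 68, 53 and 177 counts in old replicates 1, 2 and 3, against 11, 13 and 18 in young replicates 1, 2 and 3. In CPM these were 2.87, 4.45 and 8.11 in old mice, against 0.522, 0.510 and 0.550 in young mice. Every old library was above every young one, and the old libraries were spread widely while the young ones lay close together. The coefficient of variation was 52.3% in old mice and 3.95% in young mice. The young values rested on 11, 13 and 18 counts, so counting error limits them and the fold change. Their closeness therefore does not show a smaller spread in young mice. Dlk1 averaged 5.14 ± 2.69 CPM in old mice and 0.527 ± 0.0208 CPM in young mice (SD, n = 3 each). Its log2 fold change was 3.27 ± 0.59 SE, a 9.66-fold difference with a 95% confidence interval of 1.98 to 4.57 on the log2 scale (edgeR, adjusted p = 0.00905). Old replicate 3 was the highest library, and without it the log2 fold change was 2.79 and the call was lost (edgeR, adjusted p = 0.0804). Even in old mice Dlk1 remained a low-level transcript, with an average of 0.909 CPM per kb of exon, against 33.2 for Grb10.

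Impact and Zrsr1 encode proteins of the cell interior. Impact binds GCN1 and restrains the kinase GCN2, which slows translation when amino acids run short. It lies on chromosome 18 from 12955852 to 12992950 (plus strand). Impact stood at 123, 114 and 131 CPM in old replicates 1, 2 and 3, against 73.5, 81.5 and 78.0 CPM in young replicates 1, 2 and 3. The libraries of each age lay close together, and the lowest old library was well above the highest young one. The log2 fold change was 0.66 ± 0.13 SE, a 1.58-fold difference (95% confidence interval 0.39 to 0.93 on the log2 scale, edgeR adjusted p = 0.0118). The size barely moved when a library was left out, with log2 values between 0.60 and 0.71 over all 13 alternatives, but the call was lost without old replicate 1 (adjusted p = 0.0607) and without old replicate 3 (adjusted p = 0.0820, edgeR).

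Zrsr1 encodes an RNA-binding protein related to the U2AF splicing factor and is a retrocopy of the X-linked gene Zrsr2. It lies on chromosome 11 from 22972005 to 22976496 (plus strand), within the gene Commd1, which is read from the opposite strand. Zrsr1 stood at 45.4, 60.3 and 50.6 CPM in old replicates 1, 2 and 3, against 19.7, 25.6 and 33.4 CPM in young replicates 1, 2 and 3. All old libraries were above all young ones, with young replicate 3 the nearest. The log2 fold change was 0.99 ± 0.22 SE, a 1.98-fold difference (95% confidence interval 0.50 to 1.47, edgeR adjusted p = 0.0289). It was the least firm of the 3 calls: it was lost in 5 of the 6 fits with a library left out, with adjusted p between 0.0633 and 0.125 in those (edgeR), and held without young replicate 3.

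Shared sequence bears on Zrsr1. Of the 4443 windows of 50 bases (the read length) in its transcripts, 317 (7.13%) also occur in transcripts of Commd1 on either strand, and none in transcripts of Zrsr2. Commd1 stood at 20.3, 18.5 and 22.0 CPM in old mice, against 20.3, 15.6 and 16.05 CPM in young mice, and did not pass (log2 fold change 0.23 ± 0.23 SE, edgeR adjusted p = 0.700). Zrsr2, the copy on the X chromosome, had a log2 value of 0.10 ± 0.17 SE (edgeR adjusted p = 0.831). The sources used here do not say how the counting treated strand, so reads of Zrsr1 and Commd1 in the shared stretch cannot be told apart.

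The windows from 250 bases before to 50 bases after the transcription start are shown for Dlk1 and Zrsr1, which rose, and for Peg3, which did not pass. Sequences are from RefSeq (GRCm38.p6), 5′ to 3′ on the strand of the gene, and the capitals mark CpG pairs, the sites at which methylation sets the parental copies apart at imprinted loci.
Dlk1 promoter, chr12:109452573-109452872, plus strand: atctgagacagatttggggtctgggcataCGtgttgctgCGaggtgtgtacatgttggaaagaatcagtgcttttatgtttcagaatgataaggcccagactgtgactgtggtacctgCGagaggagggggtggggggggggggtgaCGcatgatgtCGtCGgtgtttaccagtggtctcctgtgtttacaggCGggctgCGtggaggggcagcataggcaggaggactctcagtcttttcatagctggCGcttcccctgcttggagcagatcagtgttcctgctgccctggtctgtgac
Zrsr1 promoter, chr11:22971755-22972054, plus strand: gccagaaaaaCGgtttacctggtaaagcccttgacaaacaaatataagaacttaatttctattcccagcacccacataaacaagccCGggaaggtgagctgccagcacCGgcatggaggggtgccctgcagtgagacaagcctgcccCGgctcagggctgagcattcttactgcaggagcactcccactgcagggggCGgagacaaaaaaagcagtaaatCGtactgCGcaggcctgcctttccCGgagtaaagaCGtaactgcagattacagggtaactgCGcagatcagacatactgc
Peg3 promoter, chr7:6730370-6730669, minus strand: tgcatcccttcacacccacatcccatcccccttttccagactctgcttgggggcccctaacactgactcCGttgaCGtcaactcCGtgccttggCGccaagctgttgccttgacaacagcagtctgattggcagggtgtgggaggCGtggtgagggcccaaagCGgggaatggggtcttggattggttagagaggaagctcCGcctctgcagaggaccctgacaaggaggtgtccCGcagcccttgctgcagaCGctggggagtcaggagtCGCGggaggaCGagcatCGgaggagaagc

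The Dlk1, Zrsr1 and Peg3 windows hold 9, 10 and 13 CpG pairs, against a median of 7 over 32851 promoter windows of the same length. By comparison, the upstream of the 2 Grb10 windows holds 45 and the Igf2r window 34. Unlike in the other windows, the start in these 2 windows was not found in the annotated transcripts of the gene. Promoter windows were found for 9 of the 10 genes, 15 windows in all. The letters TGCCGC, the hexamer bound by the imprint-keeping protein Zfp57, were searched on both strands. They occur in 4 of the 15 windows, those of Grb10 (1 window, the upstream one), Mest (2 overlapping windows) and Plagl1 (1 window). Of all promoter windows 11.6% hold them. The letters TATAAA, the core of the TATA box, occur in 3 of the 4 Gnas windows, of which 2 overlap, in no window of the other genes searched here and in 13.6% of all windows. The YY1 core GCCATNTT, on both strands, occurs in none of the 15 windows and in 6.05% of all windows.

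Of the 4 paternally expressed genes that did not pass, Ndn was the nearest. Ndn encodes necdin, a growth-suppressing protein of the MAGE family that has been tied to the quiescence of HSCs. It stood at 32.2, 43.6 and 30.6 CPM in old replicates 1, 2 and 3, against 14.98, 32.1 and 12.6 CPM in young replicates 1, 2 and 3. The groups overlapped through young replicate 2, which was higher than old replicate 3 and far above the other young libraries. The log2 fold change was 0.83 ± 0.33 SE and was not called (edgeR adjusted p = 0.215). Without young replicate 2, the library with unmatched labels, it was 1.36 and was called (edgeR adjusted p = 0.0171). In the other 12 alternatives Ndn was not called, with log2 values of 0.59 or more.

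Mest, also known as Peg1, encodes a membrane-bound protein of the hydrolase fold. It stood at 7.63, 4.03 and 8.06 CPM in old replicates 1, 2 and 3, against 1.14, 5.69 and 3.76 CPM in young replicates 1, 2 and 3. The highest young library exceeded the lowest old one. Its log2 value of 0.90 ± 0.56 SE had an interval from −0.32 to 2.11, so neither no change nor a 4-fold rise lay outside it (edgeR adjusted p = 0.480). Of the 4073 windows of 50 bases in Mest transcripts, 21.2% also occur in transcripts of Copg2, which overlaps it on the opposite strand.

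Peg3 and Plagl1 encode zinc finger transcription factors, and Plagl1 (Zac1) is known in the mouse as a regulator of other imprinted genes, Dlk1 among them. Peg3 stood at 6.96, 7.97 and 7.74 CPM in old mice, against 9.25, 7.41 and 5.35 CPM in young mice, and the old libraries lay inside the range of the young ones. Its log2 value was 0.04 ± 0.35 SE (95% confidence interval −0.71 to 0.80, edgeR adjusted p = 0.972). Plagl1 was near the limit of detection, with 13, 0 and 11 counts in old replicates 1, 2 and 3, against 26, 9 and 12 counts in young replicates 1, 2 and 3. The 0 of old replicate 2, the shallowest library, allows a level of up to 0.252 CPM (3 counts, covering counting error only). Plagl1 was not called, with a log2 value of −0.78 ± 0.94 SE and a wide interval (95% confidence interval −2.83 to 1.27, edgeR adjusted p = 0.758).

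**Figure D2:**
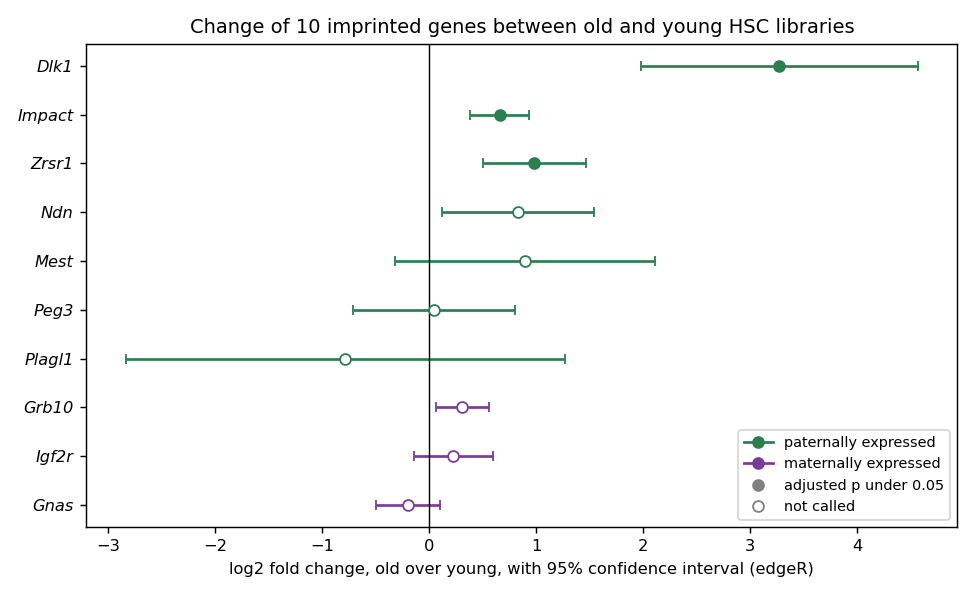
Log2 fold change of old over young with its 95% confidence interval for the 10 genes, from the edgeR fit over all genes (n = 3 per age), with filled points for adjusted p under 0.05. Dlk1, Impact and Zrsr1, at 3.27, 0.66 and 0.99, are the filled points, and the interval of Plagl1 is the widest.

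The 3 maternally expressed genes act in receptor signalling. Grb10 encodes an adaptor that binds the insulin and IGF1 receptors and dampens their signal. It stood at 291, 293 and 321 CPM in old replicates 1, 2 and 3, against 260, 257 and 213 CPM in young replicates 1, 2 and 3. All old libraries were above all young ones, yet the difference was small and was not called (log2 fold change 0.31 ± 0.11 SE, 95% confidence interval 0.06 to 0.56, edgeR adjusted p = 0.176). A doubling therefore lay outside the interval.

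Igf2r encodes the receptor that clears the growth factor IGF2 from the cell surface and carries lysosomal enzymes. It stood at 91.3, 77.8 and 79.7 CPM in old mice, against 54.9, 78.8 and 78.8 CPM in young mice, and young replicate 1 was the low library. The log2 value was 0.23 ± 0.17 SE (95% confidence interval −0.14 to 0.59, edgeR adjusted p = 0.573). Gnas encodes the stimulatory G protein subunit that activates adenylyl cyclase, and its locus also gives maternally and paternally expressed transcripts of other starts, which are summed here. Gnas stood at 260, 289 and 253 CPM in old mice, against 358, 315 and 245 CPM in young mice. The groups overlapped, with a log2 value of −0.19 ± 0.14 SE (95% confidence interval −0.49 to 0.11, edgeR adjusted p = 0.553). Of the 50-base windows of its transcripts 18.6% also occur in other genes at the locus, including the antisense gene Nespas.

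Per length of exon, Grb10, Impact and Gnas were the most abundant of the 10 genes in both ages. In old mice they averaged 33.2 ± 1.84, 23.9 ± 1.62 and 23.9 ± 1.70 CPM per kb, and in young mice 26.8 ± 2.91, 15.1 ± 0.786 and 27.3 ± 5.08 CPM per kb (SD, n = 3). In old mice Grb10 was above Impact in every library, whereas Impact and Gnas overlapped. A middle group followed, with Zrsr1 at 11.6, Ndn at 9.61 and Igf2r at 8.91 CPM per kb in old mice, against 5.85, 5.39 and 7.61 CPM per kb in young mice. Neighbours in this middle group overlapped in both ages. Mest, Dlk1, Peg3 and Plagl1 were lowest, with averages of 1.67, 0.909, 0.567 and 0.0449 CPM per kb in old mice, against 0.894, 0.0932, 0.551 and 0.0832 CPM per kb in young mice. Dlk1 overlapped Peg3 in old mice, was below it in every young library and overlapped Plagl1 in young mice. The summed CPM of the 7 paternally expressed genes ran from 218 to 236 in old mice, against 120 to 153 in young mice, and Impact gave the largest part of it. The summed CPM of the 3 maternally expressed genes ran from 642 to 660 in old mice, against 537 to 672 in young mice.

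Imprinted genes stand in clusters, and the neighbours of the 10 genes were read from the same fit. Next to Ndn on chromosome 7 lie the paternally expressed genes Mkrn3, a ring finger protein, Peg12, an inhibitor of GSK3 in the Frat family, and Snrpn and Snurf, which share transcripts and encode a splicing protein and a small upstream protein. None of the 4 passed in edgeR, although Mkrn3 was called with DESeq2, and all had log2 values above 0. Peg12 stood at 8.48, 9.73 and 7.79 CPM in old mice, against 4.08, 3.92 and 4.74 CPM in young mice, without overlap (log2 value 1.03 ± 0.35 SE, edgeR adjusted p = 0.149). Snrpn stood at 5.23, 6.37 and 6.18 CPM in old mice, against 3.46, 1.65 and 3.03 CPM in young mice, also without overlap (log2 value 1.13 ± 0.45 SE, edgeR adjusted p = 0.223). Mkrn3 was uneven, at 1.98, 6.63 and 0.412 CPM in old mice, against 0.0948, 0.392 and 0.673 CPM in young mice (log2 value 2.89 ± 0.98 SE, edgeR adjusted p = 0.147). Snurf had a log2 value of 0.69 ± 0.64 SE (edgeR adjusted p = 0.671). Ube3a, a ubiquitin ligase expressed from the maternal copy in neurons, had a log2 value of −0.23 ± 0.17 SE (edgeR adjusted p = 0.574).

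Atp10a, a lipid flippase gene of the same chromosome region that has been described as maternally expressed in some tissues, rose. It lies on chromosome 7 from 58656166 to 58829420 and stood at 100, 87.1 and 112 CPM in old mice, against 65.9, 59.0 and 60.7 CPM in young mice. No libraries overlapped between the ages, and the log2 fold change was 0.69 ± 0.14 SE (edgeR adjusted p = 0.0192). The call of Atp10a was lost without young replicate 2, young replicate 3, old replicate 1 or old replicate 3.

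In the Igf2r cluster on chromosome 17, Slc22a3, an organic cation transporter imprinted in the placenta, fell. It lies from 12418960 to 12507704 and stood at 64.7, 72.6 and 55.2 CPM in old mice, against 148, 106 and 139 CPM in young mice. The ages were well apart, with a log2 fold change of −1.03 ± 0.16 SE (edgeR adjusted p = 0.00403), and Slc22a3 was called in all 13 alternatives. Beside Peg3, Usp29, a paternally expressed gene read from the opposite strand, stood at 29.2, 22.1 and 28.6 CPM in old mice, against 38.5, 36.0 and 39.2 CPM in young mice. Those libraries did not overlap, and Usp29 was not called (log2 value −0.50 ± 0.19 SE, edgeR adjusted p = 0.197). Zim1 of the same cluster had a log2 value of −0.15 ± 0.65 SE, and Copg2 beside Mest had −0.02 ± 0.14 SE (edgeR adjusted p = 0.941 and 0.970). Rtl1, the neighbour of Dlk1, had 10, 0 and 17 counts in old replicates 1, 2 and 3, against 2, 6 and 6 counts in young replicates 1, 2 and 3. Rtl1 was not tested because it failed the filter on low counts. Meg3 and Dio3 of the Dlk1 cluster were not in the count table. Neither were the listed neighbours Ddc, Slc22a2, Magel2, Hymai, Zfp264 and Nespas of other members.

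**Figure D3:**
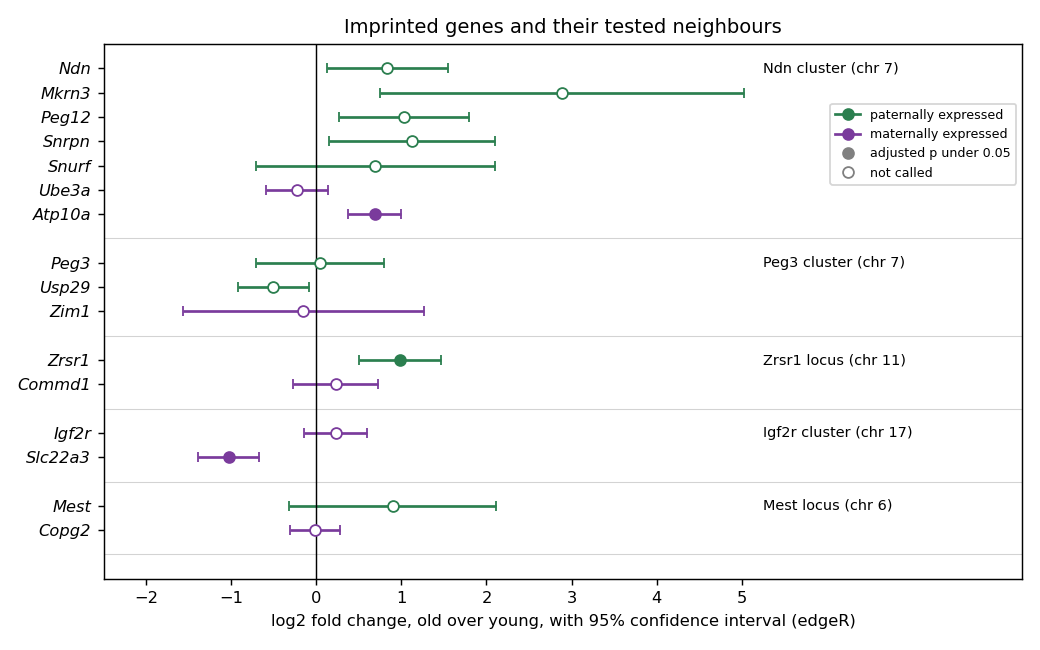
Log2 fold change of old over young with its 95% confidence interval for 5 of the 10 genes and their tested neighbours, grouped by cluster and coloured by the parental class they were listed under (edgeR, n = 3 per age), with filled points for adjusted p under 0.05. Zrsr1 and Atp10a are filled and above 0, Slc22a3 is filled and below 0 at −1.03, and the paternally expressed genes around Ndn lie above 0 without a call.

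Beyond the 10 genes, 63 other imprinted genes were listed, of which 42 were measured and 40 tested. Atp10a rose and Slc22a3 fell, and the other 38 did not pass in edgeR with all libraries. Mkrn3 was called with DESeq2, and Asb4 and Zdbf2 were called in edgeR without young replicate 1. The 2 calls of 40 stand beside the background of 3.99% over all genes tested, and the median log2 value was −0.01. By class, none of 16 other paternally expressed genes was called (median log2 value −0.06), and of 24 other maternally expressed ones 1 rose and 1 fell (median 0.02). The list does not hold every imprinted gene. Taking the listed imprinted genes that were tested, 3 of 23 paternally expressed genes rose and none fell, with a median log2 value of 0.04, and the 27 maternally expressed ones had a median of 0.02. The higher median of the 7 paternally expressed genes above was not found over the wider list.

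Genes tied to imprints, or to the setting, keeping or oxidation of DNA methylation, were mostly below 0 on the log2 scale. Of 20 tested 17 were below 0, where 7404 of all 14288 genes tested were. Of these 20, 3 were called as lower and none as higher, with a median of −0.15 beside −0.02 over all genes tested. The background of genes called as lower was 1.54%. Dnmt1, the maintenance DNA methyltransferase, stood at 228, 211 and 201 CPM in old mice, against 327, 302 and 368 CPM in young mice (log2 fold change −0.64 ± 0.11 SE, edgeR adjusted p = 0.00770). Uhrf1, which brings Dnmt1 to newly copied DNA, fell by 1.02 on the log2 scale (edgeR adjusted p = 0.0128), and Tet1, which oxidises methylcytosine, fell by 0.51 (edgeR adjusted p = 0.0395). Zfp57, which protects methylated imprints, stood at 33.9, 28.1 and 25.6 CPM in old mice, against 14.0, 19.1 and 27.2 CPM in young mice, and did not pass (edgeR adjusted p = 0.341). DNA methylation itself was not measured.

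Genes known to act with the proteins of the 10 genes were read next. Of 38 tested, 2 rose and none fell in edgeR, where 2.45% of all genes tested rose, and their median log2 value was 0.08 beside −0.02 over all genes tested. Hes1, a target of the Notch pathway, stood at 13.8, 13.4 and 22.4 CPM in old mice, against 5.74, 1.49 and 3.12 CPM in young mice (log2 fold change 2.27 ± 0.46 SE, edgeR adjusted p = 0.0169). Notch1 and Notch2 did not pass, with log2 values of 0.06 ± 0.20 SE and 0.10 ± 0.14 SE (edgeR adjusted p = 0.920 and 0.803). Atf4, the transcription factor translated when GCN2 is active, stood at 158, 160 and 170 CPM in old mice, against 90.03, 74.4 and 97.1 CPM in young mice (log2 fold change 0.90 ± 0.13 SE, edgeR adjusted p = 0.00270). The partners of Impact itself did not pass: Gcn1l1, which encodes GCN1, had a log2 value of −0.14 ± 0.13 SE, and Eif2ak4, which encodes GCN2, had −0.38 ± 0.17 SE (edgeR adjusted p = 0.678 and 0.287).

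The genes whose profile over the 6 libraries was most like that of Dlk1 were Mt1, Junb, Kcnk10, Selp and Egr1. Likeness was the root mean square distance between log2 CPM values centred on their mean, which was between 0.322 and 0.352 for these 5 and 1.57 at the median of 13613 genes. Mt1 encodes a metallothionein, Junb and Egr1 are immediate early transcription factors, Kcnk10 is a potassium channel gene and Selp encodes P-selectin. Like Dlk1, Mt1 was highest in old replicate 3, at 32.4 CPM, against 17.2 and 19.6 CPM in old replicates 1 and 2, and stood at 3.98, 2.86 and 4.62 CPM in young mice. Kcnk10 was also highest in old replicate 3, at 4.90 CPM, against 1.73 and 2.35 CPM in old replicates 1 and 2. Junb, Selp and Egr1 were highest in old replicate 3 too, at 214, 267 and 1148 CPM. The choice by profile fixes the direction of these 5 genes and favours a peak in old replicate 3. Neither is therefore a result about them.

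Markers of cells were read in the same libraries. The HSC genes Kit, Hlf and Mecom were all abundant and not called, with Kit at 829 to 918 CPM in old mice, against 826 to 930 CPM in young mice. Of 14 HSC markers 2 rose, Procr and Slamf1, where 2.45% of all genes tested rose. Log2 values were above 0 for 11 of the 14 and below 0 for 3, with a median of 0.39. In 8 of them the old mice were higher without overlap, where 11.6% of all genes tested were. Of 16 stromal markers, which mark cells in which Dlk1 is also known, 12 were measured, 8 tested and none called. Their summed level ran from 157 to 179 CPM in old mice, against 138 to 163 CPM in young mice, mostly from Bgn. Cxcl12 stood at 0.380, 0.0839 and 0.504 CPM in old mice, against 0.0948, 0.0784 and 0.183 CPM in young mice. Lepr stood at 0.464, 0.168 and 0.275 CPM in old mice, against 3.18, 0.235 and 0.306 CPM in young mice. Col1a2 stood at 7.26, 6.63 and 6.69 CPM in old mice, against 9.39, 9.29 and 5.32 CPM in young mice. Pdgfrb stood at 9.07, 9.31 and 4.53 CPM in old mice, against 7.21, 8.39 and 7.43 CPM in young mice. Of 13 macrophage markers tested 9 fell, with a summed level of all 15 measured from 18.6 to 23.4 CPM in old mice, against 86.0 to 97.6 CPM in young mice, and Fcna, Cd5l, C1qb, Adgre1 and Timd4 had no count in any old library. Of 5 neutrophil markers tested 4 fell. The summed level of all 11 measured ran from 5.61 to 8.79 CPM in old mice, against 16.7 to 241 CPM in young mice. Of 12 erythroid markers 4 fell. Over all genes tested 1.54% were called as lower in old mice. Of 7 endothelial markers Cldn5, Kdr and Clec14a rose, with a summed level of 228 to 277 CPM in old mice, against 149 to 229 CPM in young mice, and of 7 lymphoid markers Klrb1c rose. The part of these cells in the results on the imprinted genes was not tested, and in bulk RNA fewer cells that express a gene and less RNA per cell cannot be told apart.

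In the authors' deposited table, the same 3 genes passed an adjusted p of 0.05, where 6.17% of the genes with an adjusted p did so. Its fold changes run young over old. In the authors' deposited table Dlk1 had −2.13 on the log2 scale (adjusted p = 8.28e-09), Impact −0.62 (adjusted p = 0.000849) and Zrsr1 −0.86 (adjusted p = 0.00468). For Dlk1 this is a smaller change than the 3.27 as old over young from the counts. The SE of Plagl1 was 0.26 in the authors' deposited table and 0.94 in the edgeR fit of the counts. The sizes may therefore not be on the same scale, and the reason was not tested. For Ndn, Mest and Grb10 the authors' deposited table gives −0.64, −0.79 and −0.28 as young over old, with adjusted p of 0.203, 0.167 and 0.279. For Igf2r the authors' deposited table gives 0.09 as young over old (adjusted p = 0.948), which is the opposite direction to the value of 0.23 as old over young from the counts, and neither passed. For Peg3 the authors' deposited table gives 0.19 as young over old (adjusted p = 0.875), also opposite in direction to the 0.04 as old over young from the counts, and neither passed. For Gnas and Plagl1 the authors' deposited table gives 0.15 and 0.14 as young over old (adjusted p = 0.785 and 0.883), lower in old mice as in the counts. Of the cluster neighbours, Slc22a3 has 0.94 as young over old in the authors' deposited table (adjusted p = 2.93e-05). Atp10a did not pass in the authors' deposited table, with −0.42 as young over old (adjusted p = 0.227).

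**Figure D4:**
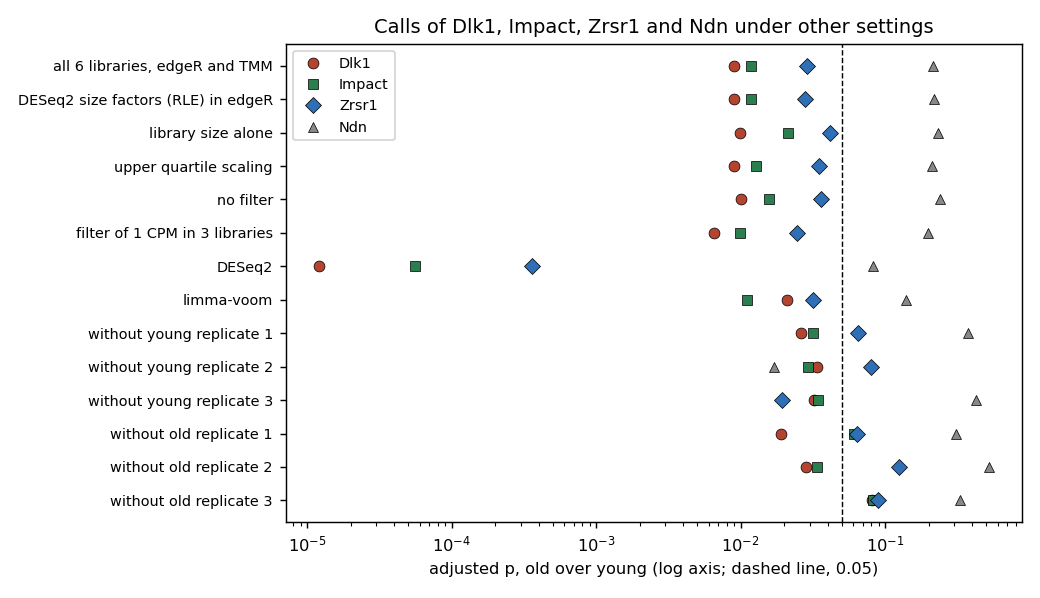
Adjusted p of old over young for Dlk1, Impact, Zrsr1 and Ndn under each processing setting, on a log axis, with a dashed line at 0.05. Points right of the line are not called: Zrsr1 crosses it in 5 settings, Impact in 2 and Dlk1 in 1, while Ndn lies left of it only without young replicate 2.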

How the data were processed

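The members and gene lists were chosen with earlier results of these data known. The authors deposited estimated counts per gene, which were whole numbers and needed no rounding, in 6 columns matched to samples by title. FastQC, MultiQC, Salmon, DESeq2 and the build GRCm38 are named, without versions or roles, per the submitters' processing notes. The authors also deposited a table of their own comparison, holding per gene the base mean signal, a log2 fold change and its error, a test score, and a p-value with its adjusted p-value. Its sign was found to be young over old, since 1344 of the 1355 tested genes past 1 log2 unit had the opposite sign there.

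Identifiers were matched to GENCODE M21 (GRCm38), which gave the symbols and coordinates (1-based). The tests used edgeR 4.0.16 under R 4.3.3, with its default filter (minimum count 10, minimum total 15), which 14288 of 16312 genes passed, all 10 members included, TMM scaling, the two-sided quasi-likelihood F test of age over the 6 libraries, and Benjamini-Hochberg adjustment over all genes tested with a threshold of 0.05. SE is the absolute log2 fold change over the square root of F. Log2 CPM for profiles used a prior count of 2. CPM per kb divides by the summed exon length of all transcripts. P-values measure the spread between these libraries, which the series design calls biological replicates. Replicate numbers follow sample order and pair nothing. Precision is limited by depth mainly for genes under about 1 CPM.

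The alternatives were other scalings (DESeq2 size factors, library size alone, upper quartile), no filter, a filter of 1 CPM in 3 libraries, DESeq2 1.42.0, limma-voom (limma 3.58.1) and leaving out each library. The fit was tested on simulated data, and part of the changed genes there were not called. A gene not called here is therefore not shown to be unchanged. All 10 genes, called list members, cluster neighbours (Commd1 included) and the 5 nearest profiles to Dlk1 were named by rule. Snurf was added to the cluster neighbours outside that rule. Further markers, Zrsr2 among the shared sequences, Zfp57, Notch1, Notch2, Gcn1l1 and Eif2ak4 were picked after their values were seen.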

Additional observations from a re-analysis of the deposited data

How the results depend on the processing

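Dlk1, Impact and Zrsr1 were called in every alternative of scaling, filter and test (DESeq2 and limma-voom included), and leaving out 1 library gave between 0 and 3 calls. Over the other imprinted genes leaving out 1 library gave between 1 and 4 calls. Over all genes leaving out 1 library gave between 245 and 473 calls, against 570 with all 6, and DESeq2 gave 1100, of which 613 were higher. With library size alone the split was 310 higher and 298 lower, against 350 and 220. Values that changed sign were small or poorly counted: leaving out 1 library gave Plagl1 log2 values from −1.21 to 0.043, above 0 only without young replicate 1, and Peg3 values from −0.14 to 0.24, below 0 only without young replicate 3, while Peg3 had −0.0036 with library size alone, and none was called. The direction of the other 8 genes held in all 13 alternatives, with log2 values from 2.79 to 3.57 for Dlk1 and from 0.82 to 1.197 for Zrsr1. Plagl1 was not tested under the filter of 1 CPM. No paired analysis was possible because the labels give the ages no shared replicate numbers. The causes of these shifts were not tested.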

Other observations

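Some imprinted genes outside the clusters above, picked after their values were seen, had groups that did not overlap without being called with all libraries in edgeR. Of the 40 other imprinted genes tested, 5 were higher and 4 lower in old mice without overlap. That is near the share over all genes tested, 22.4% in either direction. Zdbf2, a paternally expressed zinc finger gene, stood at 3.46, 5.45 and 2.84 CPM in old mice, against 2.13, 0.627 and 0.550 CPM in young mice (edgeR adjusted p = 0.171), and was called without young replicate 1. Rasgrf1, a paternally expressed exchange factor for Ras, stood at 0.506, 0.252 and 0.595 CPM in old mice, against 1.19, 2.24 and 1.07 CPM in young mice (edgeR adjusted p = 0.224). Trappc9, described as maternally expressed in mouse brain, stood at 31.2, 33.2 and 33.3 CPM in old mice, against 43.8, 40.9 and 40.3 CPM in young mice (edgeR adjusted p = 0.323). Igf2, the growth factor that Igf2r clears, stood at 3.21, 5.70 and 0.687 CPM in old mice, against 2.89, 12.0 and 3.64 CPM in young mice, with overlap (log2 value −0.97 ± 0.72 SE, edgeR adjusted p = 0.580).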
